A study of Mus musculus with 4 samples.

Results

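The genes described here encode the replacement histone variants, which were chosen by name: H2afz, H2afv, H2afx, H2afy, H2afy2, H2afj, H3f3a, H3f3b and Cenpa. All 9 symbols had a row among the 52192 gene identifiers of the deposited table. The cells were AML12, a hepatocyte line derived from a mouse with a transforming growth factor alpha transgene, and the study concerned heterochromatin and SAFB, which binds both scaffold attachment DNA and RNA in the nucleus. The shSafb group (Safb knockdown) had 2 libraries from cells infected with lentivirus carrying a short hairpin RNA against Safb, and the shCtrl group had 2 libraries from cells infected with a control hairpin. Both groups were grown with 10% fetal bovine serum, an ITS supplement and 0.1 µM dexamethasone, a glucocorticoid, and both were collected 5 days after infection. The libraries were made from total RNA without ribosomal RNA and kept strand, per the labels' protocols, so RNAs with and without a poly(A) tail could both be read.

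Nucleosomes made during DNA replication use core histones from the clustered, replication-dependent genes, whose messages end in a conserved stem-loop in place of a poly(A) tail. Replacement variants are encoded by separate genes, most of them with introns and polyadenylated messages. Some of their proteins enter chromatin outside replication with the help of dedicated chaperones. Several variants have marked places in chromatin: H3.3 at active genes and at pericentric repeats, H2A.Z at promoters, macroH2A in silenced chromatin, and CENP-A at centromeres, where it defines the site of kinetochore assembly. H2A.X is the form that is phosphorylated around DNA double-strand breaks.

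Values are the authors' deposited TPM, in which read numbers are divided by transcript length and each library is brought to the same sum. They hold no read totals, so the depth behind each value is unknown. Safb stood at 15.8 and 15 TPM in the shSafb libraries against 23.8 and 23.3 TPM in the shCtrl libraries, 1.53-fold lower (limma, Benjamini-Hochberg adjusted p = 0.00411). The knockdown was thus partial at the RNA level. Per library, 12946 to 13117 genes were at 1 TPM or more, and the Spearman correlation over the tested genes was 0.989 and 0.990 within groups and 0.951 to 0.952 between them. Mitochondrially encoded genes held 0.318% and 0.343% of TPM in the shSafb libraries, against 0.845% and 0.703% in the shCtrl libraries. The hepatocyte markers Ttr, Hnf4a and Krt8 were at 157 TPM or more in every library and Apoa2 was at 0 to 0.367 TPM. Of 10 tested hepatocyte markers, 3 rose, 2 fell and 5 did not pass, while 44.3% of all tested genes passed. Trf (log2 change 1.51), Foxa3 (1.43) and Serpina1a (0.74) rose, and Alb (-1.51) and Apoa1 (-0.95) fell. The summed list was at 14012 and 13855 TPM in shSafb against 9995 and 9819 TPM in shCtrl. Trf alone held 6814 and 6778 TPM of it in shSafb against 2453 and 2418 TPM in shCtrl, so the sum mainly follows Trf. Summed markers of endothelial cells reached 0.0196 to 0.153 TPM, those of stellate cells 0.741 to 1.33 TPM, and all 4 lymphocyte markers were at 0. The 5 macrophage markers summed to 2.83 and 3.09 TPM in shSafb against 1.51 and 1.77 TPM in shCtrl, with Adgre1 and Clec4f at 0 in all libraries. Csf1r, the 1 tested, rose (1.92 and 1.72 TPM in shSafb against 0.239 and 0.45 TPM in shCtrl), Ptprc was at 0.452 TPM in both shSafb libraries against 0.303 and 0.272 TPM in shCtrl, and Cd68 was at 0.463 and 0.922 TPM in shSafb against 0.972 and 1.05 TPM in shCtrl. Of 4 biliary markers, Krt19 rose (log2 change 1.10), Sox9 fell (-0.38), Krt7 did not pass the test and Epcam was under 1 TPM; the part of the mitochondrial share and of these markers in the results was not tested. The labels do not say that libraries of a group came from separate cultures, so the p-values measure the spread between these libraries, which may be technical.

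The H3.3 paralogs and the H2A.Z paralogs differ at many coding positions, as the starts of their coding regions show. How many reads could be told apart was not tested. H3f3a and H3f3b encode the same H3.3 protein, yet 316 of their 411 coding bases matched (76.9%), and the longest run they share is 23 bases. H2afz and H2afv encode H2A.Z.1 and H2A.Z.2, and matched at 306 of 387 coding bases (79.1%), with a longest shared run of 14 bases. The first 90 coding bases of each, from the GENCODE release 21 transcripts, are given 5′ to 3′, with capitals at the positions where the paralogs of a pair differ (20 in the H3.3 pair and 19 in the H2A.Z pair).
H3f3a: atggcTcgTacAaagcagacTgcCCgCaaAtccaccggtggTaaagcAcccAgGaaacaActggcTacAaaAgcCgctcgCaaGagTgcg
H3f3b: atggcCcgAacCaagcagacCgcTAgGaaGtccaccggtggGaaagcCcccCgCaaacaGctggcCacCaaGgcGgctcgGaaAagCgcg
H2afz: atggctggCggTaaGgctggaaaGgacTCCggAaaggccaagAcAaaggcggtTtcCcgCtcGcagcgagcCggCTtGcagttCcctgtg
H2afv: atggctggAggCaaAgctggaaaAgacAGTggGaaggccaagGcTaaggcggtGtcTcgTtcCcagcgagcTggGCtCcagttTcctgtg
H2afx and H2afj, each with 1 exon in the transcript used, matched at 80.4% of aligned coding positions and share a run of 51 bases. Short reads from that stretch could thus belong to either.

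Most messages of replication-dependent histones carry the 16-base stem-loop, and among the 9 variants a match was found in the annotated 3′ UTR of H2afx alone. The pattern searched, on the sense strand of the transcripts, was the stem GGNNCT, the loop TTTN and the stem AGNNCC in direct succession. A match lay in 40 of 47 replication-dependent core histone genes with an annotated 3′ UTR of at least 16 bases (85.1%), in 1 of the 9 variants and in 61 of 20866 protein-coding genes (0.292%). The H2afx match begins 47 bases after the stop codon, at chr9:44335240-44335255 on the plus strand of mm10, within an annotated 3′ UTR of 884 bases that continues past it. The Hist1h2ab match also begins 47 bases after the stop codon, at chr13:23751572-23751587 on the plus strand. The position varies between genes: the matches of Hist1h2ac and Hist2h2aa1 begin 33 and 59 bases after the stop codon. The H2afx and Hist1h2ab matches are shown 5′ to 3′ as DNA letters, with the 4 loop bases in capitals.
H2afx: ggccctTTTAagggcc
Hist1h2ab: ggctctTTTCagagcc
The absence of a match in the other variants says only that these letters are not in their annotated UTRs.

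**Figure D1:**
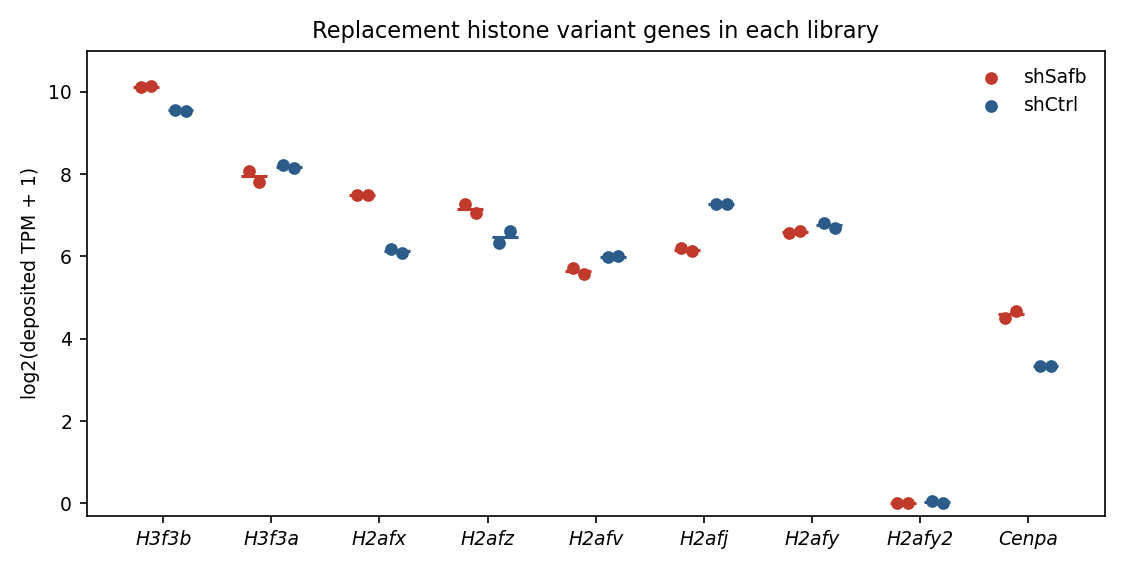
Deposited TPM of the 9 variant genes, as log2(TPM + 1), in each of the 2 shSafb (left, red) and 2 shCtrl (right, blue) libraries; points are libraries and lines are means of the plotted values. H3f3b was the most abundant gene in both groups, and H2afy2 was at or near 0. H2afx, H2afz, H3f3b and Cenpa were higher in both shSafb libraries, and H2afj, H2afv, H3f3a and H2afy were lower. The changes of H3f3a and H2afy did not pass the test.

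The variant genes moved in both directions. Of the 9 genes, 8 had a mean of at least 1 TPM over the 4 libraries and were tested, and 4 of these rose (H2afx, Cenpa, H2afz and H3f3b), 2 fell (H2afj and H2afv) and 2 did not pass the test (H3f3a and H2afy). Among all 13111 tested genes 44.3% passed the same test, 21.9% higher and 22.4% lower, so changes are common in these data and the number of calls in the family is read against that share. The median log2 change of the 8 tested members was 0.24 and that of all tested genes 0.00. Groups did not overlap for any of the 8, of which 4 lay above and 4 below in shSafb, while 74.7% of all tested genes showed no overlap, 35.5% above and 39.3% below. In these bulk samples fewer cells that make an RNA and less of it per cell cannot be told apart. Without shSafb replicate 1, 3 members were higher and 3 lower; the count of lower members was 1 without shCtrl replicate 1, without shCtrl replicate 2 or without shSafb replicate 2. Together the 9 genes held 1951 and 1899 TPM in the shSafb libraries against 1540 and 1520 TPM in the shCtrl libraries.

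**Figure D2:**
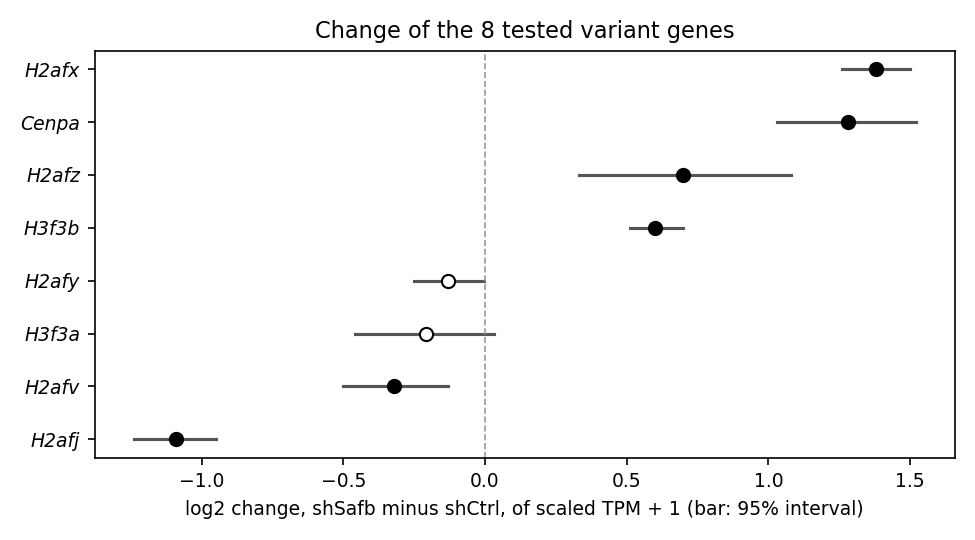
Log2 change (shSafb minus shCtrl) of scaled TPM + 1 for the 8 tested variant genes, with 95% intervals from limma; filled points passed the test and open points did not. The changes range from -1.09 for H2afj to 1.38 for H2afx.

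The order of the levels also differed between the groups. In shSafb the genes ranked, from the highest mean TPM, as H3f3b, H3f3a, H2afx, H2afz, H2afy, H2afj, H2afv, Cenpa and H2afy2. In shCtrl the order was H3f3b, H3f3a, H2afj, H2afy, H2afz, H2afx, H2afv, Cenpa and H2afy2. H2afx and H2afj thus exchanged places: H2afx was the third in shSafb and the sixth in shCtrl, and H2afj the reverse. Values of neighbours did not overlap over the 2 libraries of either group, and the closest were H2afx and H2afv in shCtrl, with a ratio of means of 1.10.

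H2afx (ENSMUSG00000049932), which encodes H2A.X, had the largest change of the family on the log2 scale. Its 1 exon spans chromosome 9, 44334694 to 44336077, plus strand. It had 180 and 179 TPM in the shSafb libraries, against 72.1 and 66.5 TPM in the shCtrl libraries. Both shSafb values lay far above both shCtrl values, and the libraries of each group were close together. The mean was 179 ± 1.04 TPM in shSafb and 69.3 ± 3.95 TPM in shCtrl (SD, n = 2 each), 2.59-fold higher, with a log2 change of 1.38 ± 0.05 (SE; limma adjusted p = 5.31e-04). Of all tested genes, 97.5% had a smaller absolute log2 change. The predicted miRNA gene Gm44335 overlaps H2afx on the opposite strand and was at 1.88 and 3.1 TPM in shSafb against 0 and 0.919 TPM in shCtrl.

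The genes whose profile over the 4 libraries was nearest to that of H2afx were Rhob, Maff and Foxa3, none of which is a histone gene. Nearness was the Euclidean distance between gene-centred log2(scaled TPM + 1) values, among 1546 protein-coding genes with a mean TPM within 2-fold of that of H2afx. Rhob, which encodes a small GTPase, had a distance of 0.0353 and stood at 323 and 324 TPM in shSafb against 129 and 123 TPM in shCtrl. Maff, which encodes a small MAF transcription factor, had a distance of 0.0358 and Foxa3, a liver forkhead factor gene, of 0.0516. With 4 libraries such a profile is mostly the difference between the groups.

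H2afj (ENSMUSG00000060032) encodes H2A.J, which differs from the common H2A mainly at its C-terminal end and which in human fibroblasts is known to accumulate in senescence. The gene spans chromosome 6, 136808244 to 136810074, plus strand, and the transcript used, 1 of 2 annotated, has 1 exon. H2afj had 72.5 and 68.7 TPM in the shSafb libraries, against 153 and 155 TPM in the shCtrl libraries. The direction was thus opposite to that of H2afx, with the groups again well apart. It was 2.19-fold lower in shSafb (70.6 ± 2.64 TPM in shSafb and 154 ± 1.26 TPM in shCtrl, SD, n = 2 each; log2 change -1.09 ± 0.05, limma adjusted p = 7.82e-04). The predicted miRNA gene Gm44364 overlaps it on the opposite strand and was at 2.31 and 0.734 TPM in shSafb against 3.76 and 3.35 TPM in shCtrl.

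The H2A.Z genes moved apart. H2afz (ENSMUSG00000037894; chromosome 3, 137864487 to 137866922, plus strand) had 153 and 131 TPM in the shSafb libraries, against 79.7 and 97.7 TPM in the shCtrl libraries. The libraries of a group differed more here than for H2afx or H2afj, but the groups did not overlap. It rose 1.60-fold (142 ± 15.9 TPM in shSafb and 88.7 ± 12.7 TPM in shCtrl, SD, n = 2 each; log2 change 0.70 ± 0.14, limma adjusted p = 0.018). Leaving out shSafb replicate 1 ended the call (limma adjusted p = 0.0709), as did applying no filter on low values (0.0586), over a range of 0.0135 to 0.0709 in 12 alternatives. H2afv (ENSMUSG00000041126; chromosome 11, 6427229 to 6444443, minus strand) had 51.7 and 47.0 TPM in the shSafb libraries, against 62.4 and 63.2 TPM in the shCtrl libraries. It was 1.27-fold lower in shSafb (log2 change -0.32 ± 0.07, limma adjusted p = 0.022). The H2afv call ended when shCtrl replicate 1 (limma adjusted p = 0.0545), shCtrl replicate 2 (0.0837) or shSafb replicate 2 (0.0868) was left out, over a range of 0.0125 to 0.0868.

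H2afz supplied 74.8% and 73.6% of the summed H2A.Z TPM in the shSafb libraries, against 56.1% and 60.7% in the shCtrl libraries. The share differed by 15.8 percentage points, and both shSafb values were above both shCtrl values. The exact two-sided permutation p of 0.33 for this and the following 3 shares is the smallest that 2 against 2 libraries can give.

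Because the H2A.Z paralogs moved in opposite directions, their upstream sequences are shown, from RefSeq on GRCm38.p6, 250 bases before the annotated start of each, 5′ to 3′ in the direction of transcription. Capitals mark CCAAT, the box bound by the factor NF-Y, and TTTGAA, a form of the cell cycle homology region, on either strand (ATTGG and TTCAAA when reversed).
H2afz, plus strand, chr3:137864237-137864486: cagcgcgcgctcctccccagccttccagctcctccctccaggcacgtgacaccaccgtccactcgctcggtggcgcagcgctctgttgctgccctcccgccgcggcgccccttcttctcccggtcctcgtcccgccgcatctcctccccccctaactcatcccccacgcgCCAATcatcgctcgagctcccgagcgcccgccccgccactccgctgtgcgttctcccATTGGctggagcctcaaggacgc
H2afv, minus strand, chr11:6444444-6444693: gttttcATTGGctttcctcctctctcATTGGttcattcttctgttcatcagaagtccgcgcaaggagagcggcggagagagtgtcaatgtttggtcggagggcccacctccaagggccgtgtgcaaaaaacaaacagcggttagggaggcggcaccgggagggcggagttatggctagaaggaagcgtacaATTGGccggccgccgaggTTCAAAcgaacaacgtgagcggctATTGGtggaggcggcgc
The H2afz window held 2 CCAAT matches, and the H2afv window held 4, with 1 TTTGAA match that overlaps none of them. Of the 9 variants, 8 had an entry in the promoter table (H2afx had none), and 6 of the 8 held CCAAT on either strand in these 250 bases, as did 33.8% of all 32851 windows. The windows of H2afy, H2afy2, H3f3a and H3f3b lie wholly, and those of Cenpa and H2afj partly, downstream of another annotated start of the same gene. Of the 250 bases, 141 for Cenpa and 246 for H2afj lie upstream of all annotated starts. TTTGAA was in 1 of the 8 windows and in 16% of all windows, and TTTNGCGC, a form of the E2F site, was in 0 of the 8 and in 1.13% of all windows. CCAAT matches were present upstream of both H2afz and H2afv. A match is a string of letters, not a known site, and the part of these matches in the changes was not tested.

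The macroH2A genes were at opposite ends of expression. H2afy (ENSMUSG00000015937; chromosome 13, 56073619 to 56136361, minus strand) encodes macroH2A1, an H2A with a large macro domain. The shSafb libraries had 94.5 and 97.6 TPM of it, against 111 and 103 TPM in the shCtrl libraries. Both shSafb values were below both shCtrl values, but the gap between the groups was smaller than the difference between the shCtrl libraries. Its log2 change was -0.13 ± 0.05 with a 95% interval of -0.25 to -0.0034 and did not pass the test (limma adjusted p = 0.0875, or 0.0461 unadjusted). The macroH2A1.1 and macroH2A1.2 splice forms share the gene and are not separated by a value per gene. H2afy2 (ENSMUSG00000020086; chromosome 10, 61738665 to 61784147, minus strand), which encodes macroH2A2, was listed at 0 TPM in both shSafb libraries and at 0.0348 and 0 TPM in the shCtrl libraries, and was not tested.

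H3.3 was the most abundant product of the family, and its share of messages from H3f3b grew. H3f3b (ENSMUSG00000016559; chromosome 11, 116021912 to 116027962, minus strand) had 1109 and 1126 TPM in the shSafb libraries, against 756 and 741 TPM in the shCtrl libraries. The spread within a group was small beside the gap between the groups. It rose 1.49-fold (1117 ± 12 TPM in shSafb and 749 ± 10.3 TPM in shCtrl, SD, n = 2 each; log2 change 0.60 ± 0.04, limma adjusted p = 9.52e-04). H3f3a (ENSMUSG00000060743; chromosome 1, 180800832 to 180813943, minus strand) had 269 and 225 TPM in the shSafb libraries, against 296 and 284 TPM in the shCtrl libraries. The shSafb values were lower but lay far from each other, and the log2 change of -0.21 ± 0.09 (95% interval -0.46 to 0.03) did not pass the test (limma adjusted p = 0.13). Without shSafb replicate 1, which had the higher shSafb value, the log2 change was -0.34 and passed (limma adjusted p = 0.0284; 0.0284 to 0.368 over 12 alternatives). That fit has 1 shSafb library, which is assumed to vary like the shCtrl libraries. H3f3b made up 80.5% and 83.3% of the summed H3.3 TPM in the shSafb libraries, against 71.8% and 72.3% in the shCtrl libraries.

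H3f3a has many copies in the genome that resemble its message. Genes with at least 95% identity to it over at least 100 bases numbered 19, of which 17 were pseudogenes, and the 19 summed to 13.7 and 14.4 TPM in shSafb against 14.8 and 16.6 TPM in shCtrl. The same search, made on either strand, found 3 such genes for H3f3b, 4 for H2afz, 18 for H2afx and 21 for H2afj, and none for H2afv or Cenpa. Only 1 of the 18 and 1 of the 21 were annotated pseudogenes. The 18 summed to 19.5 and 22.3 TPM in shSafb against 10.9 and 9.48 TPM in shCtrl. The 21 summed to 12.4 and 15.4 TPM in shSafb against 8.61 and 8.28 TPM in shCtrl. Adding the TPM of annotated pseudogenes to each member left the calls at 4 higher and 2 lower. The similar genes that are not pseudogenes were left out of that fit. The antisense gene H3f3aos overlaps H3f3a and was at 0.821 and 0.54 TPM in shSafb against 1.15 and 0.923 TPM in shCtrl. How strand entered the counting is not known here, so reads of overlapping genes on opposite strands may be uncertain.

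Cenpa (ENSMUSG00000029177; chromosome 5, 30666777 to 30674830, plus strand) encodes CENP-A, the centromeric H3 variant, and was the least abundant tested member. It had 21.6 and 24.7 TPM in the shSafb libraries, against 9.04 and 9.17 TPM in the shCtrl libraries. The groups were well apart, with close agreement between the shCtrl libraries. It rose 2.54-fold (23.1 ± 2.24 TPM in shSafb and 9.10 ± 0.0864 TPM in shCtrl, SD, n = 2 each; log2 change 1.28 ± 0.09, limma adjusted p = 0.00135). Cenpa is known to be transcribed mainly in dividing cells late in the cell cycle. Of 23 DNA replication and mitosis markers, 18 rose, 1 fell and 4 did not pass (median log2 change 0.64, against 0.00 for all tested genes). Among all tested genes 21.9% rose and 22.4% fell. The summed markers stood at 861 and 871 TPM in shSafb against 638 and 621 TPM in shCtrl. Ccna2, the cyclin A2 gene, had 34.1 and 35.6 TPM in shSafb against 11.4 TPM in both shCtrl libraries (log2 change 1.56, limma adjusted p = 6.20e-04). The mitotic genes Ccnb1 and Aurka had log2 changes of 1.45 and 1.17. Top2a, the topoisomerase II alpha gene, had 134 and 130 TPM in shSafb against 58.6 and 49.5 TPM in shCtrl. The marker that fell was Pcna, the replication clamp gene, at 97.2 and 94.1 TPM in shSafb against 136 and 137 TPM in shCtrl. Of the markers that did not pass, the replication genes Mcm6 (log2 change -0.17), Cdt1 (-0.54) and Gins2 (-0.34) were lower in both shSafb libraries. Mcm3 (0.14) was higher in both. Pcna and these genes were named after their values were seen. The part of the DNA replication and mitosis markers in the change of Cenpa or of any other member was not tested.

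Set beside the replication-dependent histones, the variants took a smaller share of H2A and H3 messages in the shSafb libraries. Among all tested genes 21.9% rose and 22.4% fell, with a median log2 change of 0.00. Of 59 tested replication-dependent core histone genes 54 rose and 0 fell, with a median log2 change of 1.10. Their sum was 13154 and 13258 TPM in the shSafb libraries, against 6522 and 6628 TPM in the shCtrl libraries. The 6 H2A variants summed to 552 and 523 TPM in shSafb against 479 and 486 TPM in shCtrl, while the 18 replication-dependent H2A genes summed to 2324 and 2401 TPM in shSafb against 1122 and 1168 TPM in shCtrl. The variant share of H2A-family TPM was therefore 19.2% and 17.9% in the shSafb libraries, against 29.9% and 29.4% in the shCtrl libraries. H3f3a and H3f3b made up 39.9% and 39.6% of H3-family TPM in the shSafb libraries, against 49.9% and 50.2% in the shCtrl libraries, with 12 replication-dependent H3 genes in the denominator. Neither share overlapped between the groups, and the differences were -11.1 and -10.3 percentage points. The log2 changes of H2afx (1.38) and Cenpa (1.28) were above the median of the replication-dependent genes, and those of the other tested members were below it. Histone genes of a family resemble each other, so the values of single replication-dependent genes are uncertain and the sums are given.

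**Figure D3:**
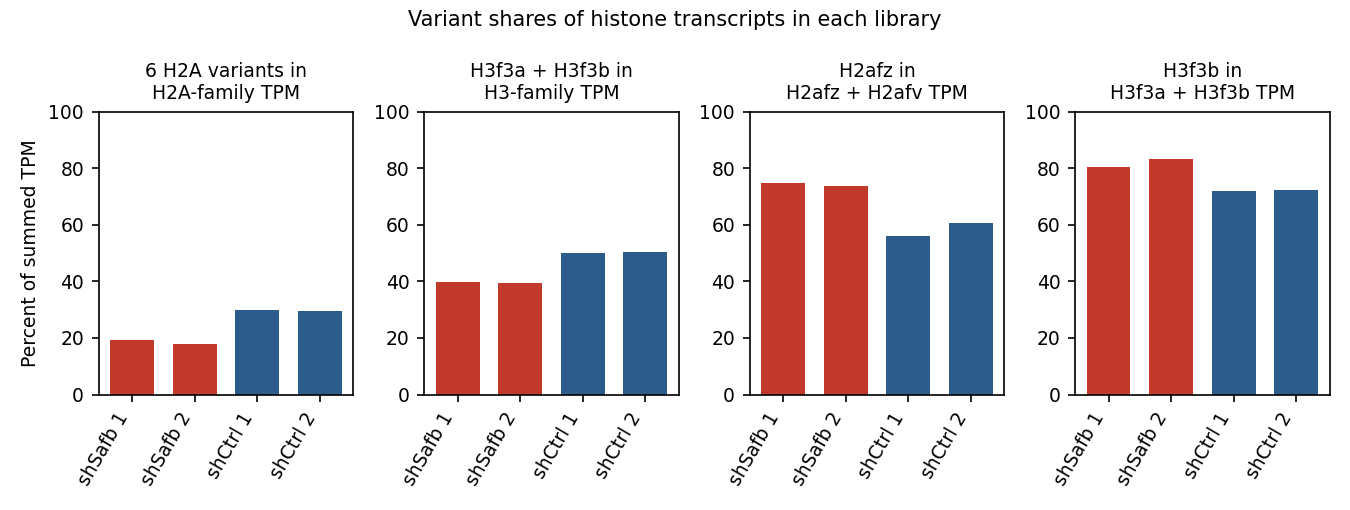
Percent of summed TPM in each library (2 shSafb libraries in red, 2 shCtrl libraries in blue): the 6 H2A variants in all H2A genes, H3f3a and H3f3b in all H3 genes, H2afz in the H2A.Z pair, and H3f3b in the H3.3 pair. The first share is 19.2% and 17.9% in shSafb against 29.9% and 29.4% in shCtrl, and the last is 80.5% and 83.3% in shSafb against 71.8% and 72.3% in shCtrl.

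Within the 6 H2A variants the composition was turned over between H2afx and H2afj. H2afx supplied 32.6% and 34.1% of their summed TPM in shSafb against 15.1% and 13.7% in shCtrl. H2afj supplied 13.1% in both shSafb libraries against 32.1% and 32.0% in the shCtrl libraries. H2afz supplied 27.8% and 25.1% in shSafb against 16.6% and 20.1% in shCtrl, and H2afy 17.1% and 18.7% in shSafb against 23.2% and 21.2% in shCtrl. H2afv supplied 9.36% and 8.99% in shSafb against 13.0% in both shCtrl libraries.

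The genes that place, remove, modify or read the variants were taken in 6 lists, with median log2 changes from 0.09 to 0.37. Their counts stand beside the 44.3% of all tested genes that passed, 21.9% higher and 22.4% lower, and were not tested against that share. The shares that passed in the H2A.Z, H3.3 and CENP-A lists were near it or below it, and those in the H2A.X, macroH2A and chaperone lists were above it. Of 21 genes for H2A.Z deposition and removal, 6 rose, 4 fell and 11 did not pass (median log2 change 0.09). The 4 with the smallest p were subunits of the TIP60/EP400 complex: Morf4l1 fell (log2 change -0.81), Dmap1, also in the SRCAP complex, fell (-0.69), Brd8 rose (0.44) and Kat5, the acetyltransferase, rose (0.41). Srcap, the ATPase that exchanges H2A for H2A.Z, had 25.6 and 20.7 TPM in shSafb against 19.8 and 15.4 TPM in shCtrl and did not pass (limma adjusted p = 0.0888). Ep400 had a log2 change of 0.05 and Ino80 of 0.11, neither past the threshold. Anp32e, the chaperone that removes H2A.Z, was at 17.5 and 9.34 TPM in shSafb against 8.98 and 17.6 TPM in shCtrl, so its libraries differed more within groups than between them.

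Of 9 genes for H3.3 deposition, 3 rose, 0 fell and 6 did not pass (median log2 change 0.19). Atrx, the remodeller that acts with DAXX at heterochromatin, had 42.7 and 50.4 TPM in shSafb against 28.9 and 28.7 TPM in shCtrl (log2 change 0.69 ± 0.09, limma adjusted p = 0.00564). Daxx itself was at 13.3 and 15.4 TPM in shSafb against 16.5 and 14.2 TPM in shCtrl, and the groups overlapped (log2 change -0.07 ± 0.11). Ubn2, a HIRA complex subunit, rose (log2 change 0.93, limma adjusted p = 0.00188), and Hira rose by less (0.27, limma adjusted p = 0.0333). Cabin1 of the same complex had a log2 change of 0.21 and Asf1a, which hands H3-H4 to HIRA, of -0.10, and neither passed.

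Of 7 genes for CENP-A deposition and centromere binding, 2 rose, 1 fell and 4 did not pass (median log2 change 0.37). Oip5, a subunit of the complex that primes centromeres for CENP-A, had 7.29 and 5.63 TPM in shSafb against 3.59 and 3.93 TPM in shCtrl and rose (log2 change 0.66 ± 0.15, limma adjusted p = 0.0247). Mis18a, of the same complex, had a log2 change of 0.37 and did not pass (limma adjusted p = 0.0622). Hjurp, the CENP-A chaperone, had 48.6 and 36.1 TPM in shSafb against 35.1 and 31.5 TPM in shCtrl and did not pass (log2 change 0.35 ± 0.15, limma adjusted p = 0.124). Cenpb, which binds a motif in satellite DNA, fell (log2 change -0.31, limma adjusted p = 0.0172).

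Of 10 H2A.X kinases, phosphatases and readers, 4 rose, 2 fell and 4 did not pass (median log2 change 0.20). Atr, a kinase that phosphorylates H2A.X, rose (log2 change 0.34), as did Baz1b (0.27), which phosphorylates its terminal tyrosine, and Rnf168 (0.42), a ubiquitin ligase at breaks, while the reader gene Trp53bp1 fell (-0.52). None of these changes was as large as that of H2afx. Of 8 genes listed under macroH2A splicing and deposition, 2 rose, 3 fell and 3 did not pass (median log2 change 0.10). The list also held Parp1, whose product binds macroH2A1.1, and the macro domain gene Macrod1. Hells (0.97), a remodeller gene, and Mbnl2 (0.66), a splicing factor gene, rose. Parp1 (-0.39) and Macrod1 (-0.90) were among those that fell. Of 12 general and replication-coupled chaperones, 4 rose, 3 fell and 5 did not pass (median log2 change 0.14). Among these, Chaf1a, the large CAF-1 subunit, rose by 0.68, Asf1b by 0.81, Mcm2 by 0.21 and Npm1 by 0.21 on the log2 scale.

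**Figure D4:**
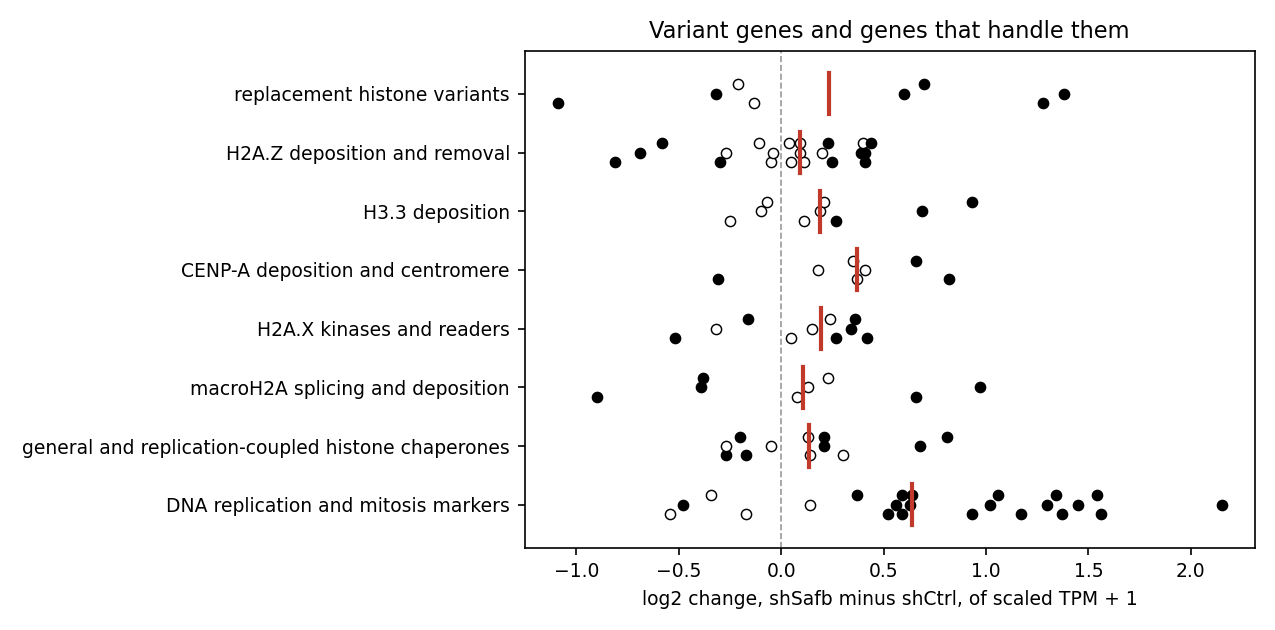
Log2 change (shSafb minus shCtrl) of scaled TPM + 1 for each tested gene of the variant family, of 6 lists of genes that handle histones and of the DNA replication and mitosis markers; filled points passed the test and red bars are medians. The variants run from -1.09 to 1.38 and the markers have a median of 0.64, while the medians of the 6 handling lists lie between 0.09 and 0.37.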

How the data were processed

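RNA was measured in 4 libraries, 2 shSafb and 2 shCtrl, grouped by their titles. The values are the authors' deposited TPM, and HISAT2, HTSeq, StringTie and DESeq2 with mm10 are named, without versions or roles, in the submitters' processing notes; no source used here says whether strand entered the counting. The 52200 rows hold 52192 identifiers, of which 6 were on more than 1 row and were summed, and 52045 are in GENCODE mouse release 21 (GRCm38), the source of names and coordinates.

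Genes with a mean of at least 1 TPM were tested (13111). Libraries were divided by the median of their ratios to the geometric mean (factors 0.992, 0.995, 1.031 and 0.991 for shSafb 1, shSafb 2, shCtrl 1 and shCtrl 2), and log2(scaled TPM + 1) was fitted with limma 3.58.1 in R 4.3.3 by group. Its empirical Bayes step used a trend on mean level, with 2.61 prior and 2 residual degrees of freedom. Tests were two-sided, and a gene was called at a p under 0.05 after Benjamini-Hochberg adjustment over all tested genes. Log2 changes are on that scale and understate the change of low genes. Each mean and SD was taken over deposited TPM. Shares are ratios of summed TPM with exact permutation tests. Similar genes were found with BLAST 2.17.0, and coding regions were aligned with Biopython 1.88. Each variant has a full account; of each list up to 4 genes with the smallest p were named, with 10 chaperones and remodellers fixed by name; a gene that this rule names is not reported here. The members and lists were chosen with earlier results of these data known. Alternatives covered the pseudocount, the filter, the scaling, the trend, a replicate block, leaving out each library and, added after seeing the data, pseudogene TPM.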

Additional observations from a re-analysis of the deposited data

How the results depend on the processing

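H2afx, H2afj, H3f3b and Cenpa kept their direction and their call in all 12 alternatives, and H2afy stayed short of the threshold in all 12. With no filter on low values H2afz had a log2 change of 0.68 and was no longer called (limma adjusted p = 0.0586), which is a test over more genes. Leaving out each library in turn gave log2 changes of 0.53 to 0.87 for H2afz, -0.39 to -0.25 for H2afv and -0.34 to -0.08 for H3f3a, 3 to 4 members higher and 1 to 3 lower, and 1754 to 2151 genes higher and 1970 to 2161 lower. In these fits the lone library of a group is assumed to vary like the other group. The number of genes higher moved by more than 1.5 times without shSafb replicate 1 (1754) and without shSafb replicate 2 (1791), against 2867 with all libraries; the cause was not tested beyond the smaller number of libraries. The replicate numbers are shared by the groups but the labels do not say that they pair libraries, and same-numbered libraries did not deviate together (correlation -0.0641 across genes). With the replicate number as a block, 4 members were higher and 2 lower, and 2540 genes were higher and 2686 lower. The shares kept their direction in every alternative run. Depth is unknown, so no counting error can be given, and a value of 0 for H2afy2 does not show that the gene was silent.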

Other observations

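Some further H3.3-like and H2A variant genes were looked at after their values were seen, and these were near 0. H3f3c, a further H3.3-like gene, was at 0.745 and 0.64 TPM in the shSafb libraries, against 1.47 and 1.49 TPM in the shCtrl libraries (log2 change -0.54 ± 0.15, limma adjusted p = 0.0393). Its level was low and its sequence resembles other H3.3 genes, so its value is uncertain. Of 22 further H2A variant genes, those of the H2afb and H2al families and H2afy3, 10 were at 0 in all libraries, 0 had a mean of at least 1 TPM, and the highest value in a library was 0.855 TPM, for H2al3.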
